A study of Rattus norvegicus with 22 samples.

Results

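The genes described here mostly encode nuclear subunits of the 5 complexes of oxidative phosphorylation, measured as mRNA in rat microglia, the brain's own macrophages. They were chosen by symbol from a table of 17284 rat genes, with Nduf symbols for complex I, Sdha to Sdhd for complex II, Uqcr for complex III, Cox4 to Cox8 for complex IV and Atp5 for complex V. Of 80 rows that matched, 74 were kept because they reached 1 FPKM (sequenced fragments scaled to transcript length and library size) in at least 3 of 22 libraries. Complex I had 33 members, complex II 4, complex III 8, complex IV 12 and complex V 17. The 6 rows left out were Ndufa4l2, Cox8b, Cox8c and the pseudogene Cox6c-ps1, each listed at 0 throughout, and Ndufs6 and Cox4i2, which reached 1.62 and 1.32 FPKM in 1 library each. Just inside the threshold, Cox6a2 reached 1 FPKM in 4 libraries with a maximum of 3.59 FPKM. Of 26 symbols searched for the subunits encoded in mitochondrial DNA, 0 were in the table, so these subunits were not analysed here.

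Complexes I and II take electrons from NADH and from succinate, complex III passes them to cytochrome c, and complex IV hands them to oxygen. Complexes I, III and IV pump protons across the inner mitochondrial membrane, and complex V, the ATP synthase, uses the returning protons to make ATP. Macrophages and microglia are known to lean on this pathway when unstimulated and to draw more on glycolysis after inflammatory stimulation.

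All 22 libraries came from brain cells of Sprague-Dawley rats at postnatal day 21, captured on dishes coated with an antibody to CD11b. Acute libraries (n = 3) were made from cells with 0 days in culture and no serum. TIC libraries (n = 6) were made after 8 days in the serum-free medium called TIC. FCS 1d (n = 5), FCS 3d (n = 4) and FCS 5d (n = 4) cultures also lasted 8 days, with 10% fetal calf serum present for the last 1, 3 or 5 days. RNA from a whole dish or isolate is a bulk measurement, so fewer cells of one type and less RNA per cell cannot be told apart.

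Libraries stood apart in ways the groups did not explain. Summed FPKM was 564301 to 696703 in 6 libraries (FCS 1d 5, TIC 5, TIC 6 and all of Acute), against 335470 to 434577 in the remaining 16. Tested genes listed at 0 numbered 353 to 672 in 12 libraries and 934 to 1295 in 10, and Acute 1 and Acute 2 were in the second range while Acute 3 was in the first. The labels mention 2 batches of library preparation and sequencing, each with every condition, but give no batch for any sample. Neither division is called a batch here. All 10 microglial markers were detected in every group, and their summed share of FPKM was 3.27% to 4.68% in Acute, 0.241% to 0.450% in TIC and 0.820% to 1.74% in FCS 5d. Itgam, which encodes CD11b, was at 3.97, 9.14 and 87.2 FPKM in Acute 1, 2 and 3. Neutrophil and monocyte markers made up 0.274% to 2.77% of FPKM in Acute and at most 0.0185% in any culture, and red blood cell markers made up 0.123% to 0.286% in Acute, where 4 of 5 were detected, and were listed at 0 in all cultures.

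These divisions ran through the respiratory chain genes. The ratio of mean FPKM in TIC 5 and TIC 6 to that in TIC 1 to 4 had a median of 2.51 over the 73 members with a ratio, against 1.48 over the tested genes with one. It was 5.69 for Atp5i, a small membrane subunit of the ATP synthase, while the 6.41 of Cox6b2 rests on means of only 1.62 and 0.252 FPKM. Atp5g1, a proton-carrying c subunit of the ATP synthase, held 426 and 383 FPKM in TIC 5 and TIC 6 and 55.9 to 93.3 FPKM in the other 4 TIC libraries. The Acute libraries also differed from each other. Every difference here is on the log2(FPKM + 1) scale. Acute 3 minus the mean of Acute 1 and Acute 2 ran from -2.61 to 2.41 over the members (median 0.25). Over all tested genes it ran from -6.36 to 8.57 (median 0.00). Calls that were lost without 1 of these libraries are named with the comparison they belong to.

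**Figure D1:**
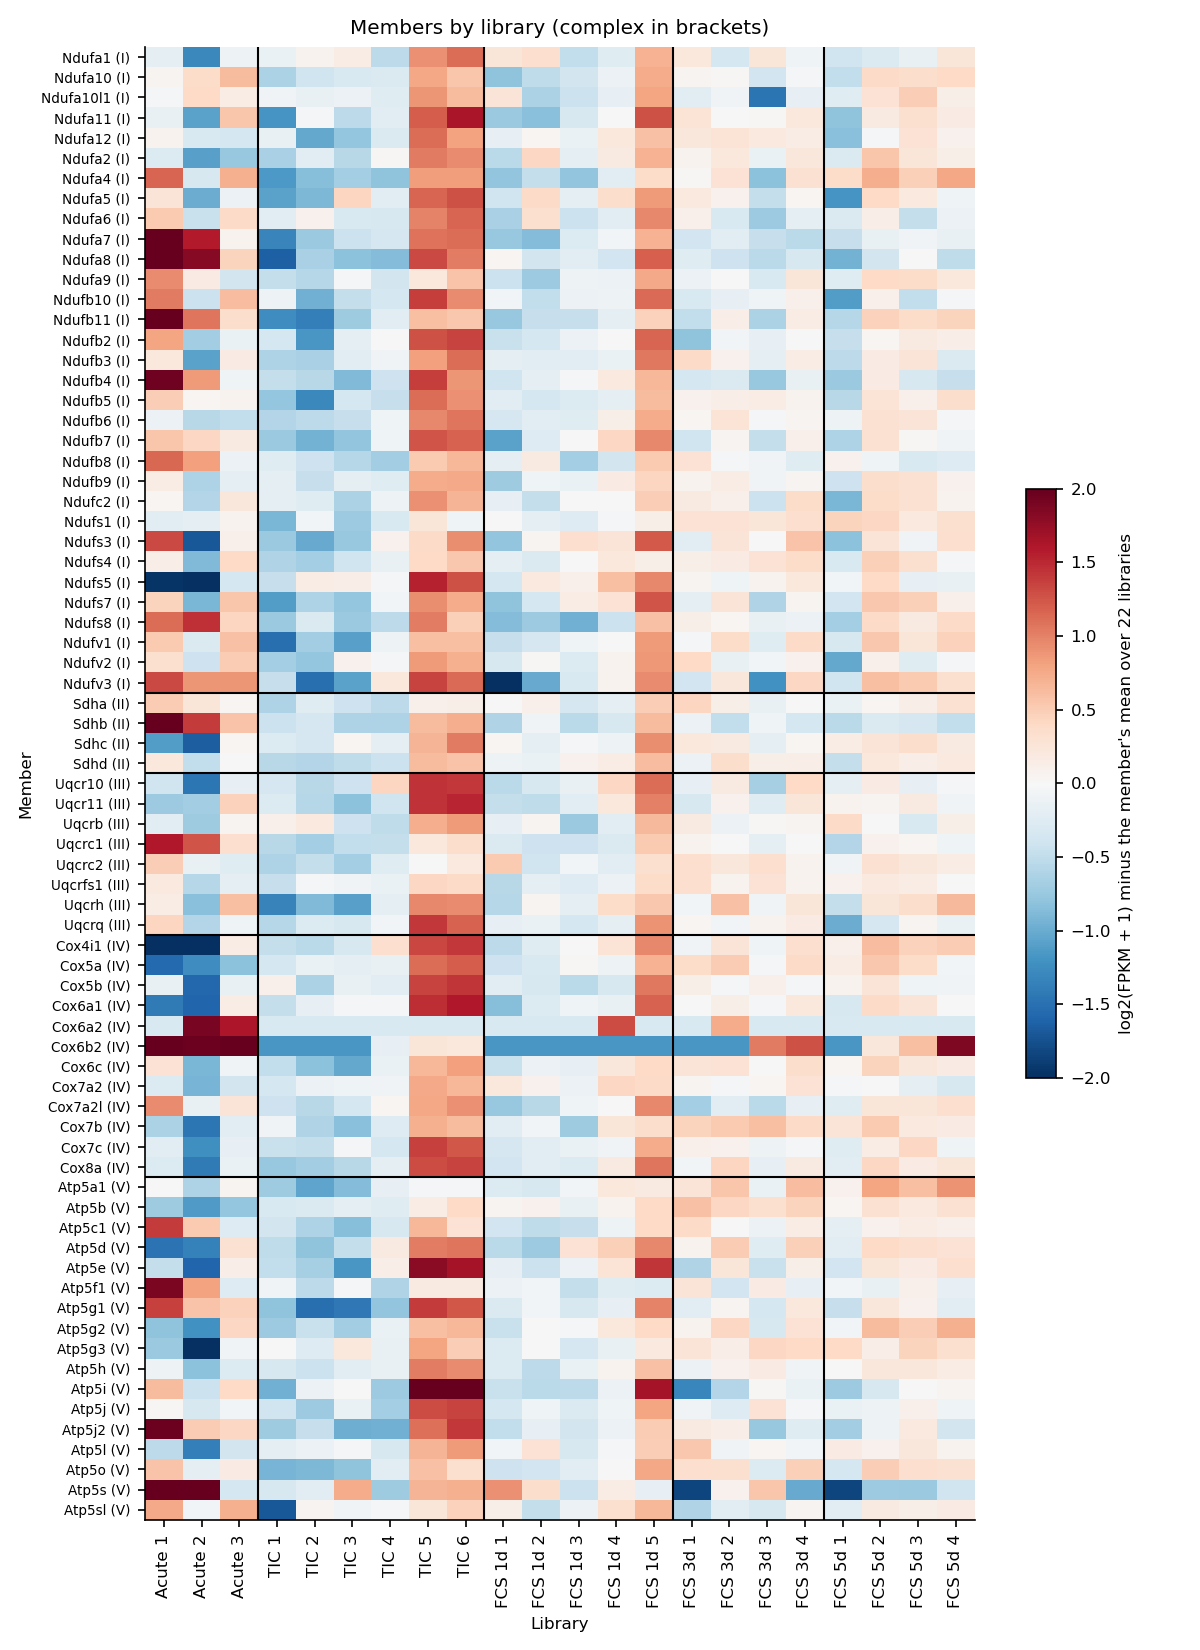
Level of 73 of the 74 members in each of the 22 libraries, as log2(FPKM + 1) minus that member's mean over all libraries, with rows grouped by complex and the colour scale ending at -2 and 2. Columns TIC 5, TIC 6 and FCS 1d 5 are red for most members, and Acute 1 and Acute 2 are dark red for some members and dark blue for others.

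Of the 74 members, 71 reached 1 FPKM in all 22 libraries. FPKM is scaled to length, so levels can be set side by side between genes. The highest mean over all libraries in complex V was that of Atp5b (574 FPKM), the catalytic beta subunit of the ATP synthase, and in complex IV that of Cox8a (458 FPKM). Uqcr10 led complex III (222 FPKM), Ndufb9 complex I (249 FPKM) and Sdhb, the iron-sulphur subunit of succinate dehydrogenase, complex II (177 FPKM). The lowest were Cox6a2 (0.433 FPKM), the heart and muscle form of subunit 6a, Cox6b2 (2.74 FPKM), the testis form of subunit 6b, Atp5s (3.73 FPKM), a factor tied to ATP synthase coupling rather than a core subunit, and Ndufa10l1 (8.74 FPKM). The common form Cox6a1 had a mean of 419 FPKM. Several members have processed copies elsewhere in the genome, so reads could be divided between copies and their levels are uncertain to that extent.

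As a share of summed FPKM, the 74 members together held 1.39% to 2.06% in Acute, 1.96% to 2.15% in TIC 1 to 4 and 2.80% to 2.81% in TIC 5 and TIC 6. The share was 2.03% to 2.49% in FCS 1d, 2.47% to 2.81% in FCS 3d and 2.65% to 3.00% in FCS 5d. Complex IV held 0.182% to 0.336% in Acute and 0.500% to 0.837% in the cultures, so every Acute library lay below every culture. Complex V held 0.397% to 0.595% in Acute, 0.600% to 0.795% in TIC, 0.812% to 0.944% in FCS 3d and 0.875% to 0.951% in FCS 5d, so its FCS 3d and FCS 5d libraries lay above every TIC library. Complex II overlapped between Acute, at 0.0843% to 0.161%, and FCS 5d, at 0.128% to 0.131%. These shares were not tested.

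**Figure D2:**
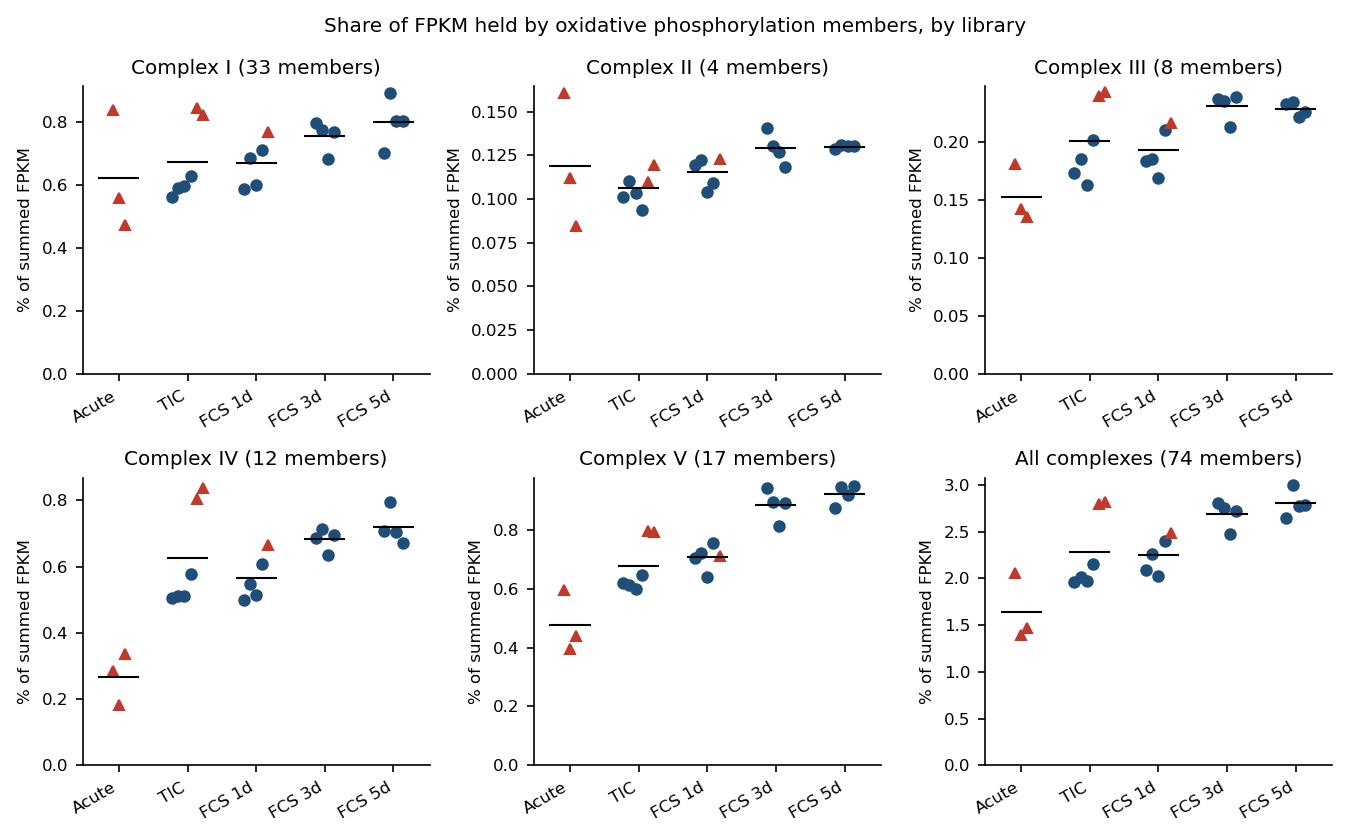
Share of summed FPKM (percent, vertical axis from 0) held by the members of each complex and by all 74, with 1 point per library, group means as lines, and triangles for the 6 libraries above 500000 summed FPKM. The 3 Acute libraries lie below all cultures for complex IV, and the FCS 5d libraries lie at 0.875% to 0.951% for complex V.

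TIC against Acute sets 8 days of serum-free culture beside fresh cells. Members moved in both directions: 18 of 74 passed the test, 9 higher in TIC and 9 lower, where 42.4% of all 9691 tested genes passed (14.7% higher and 27.7% lower). The test was limma on log2(FPKM + 1) with all 22 libraries in 1 fit, and a gene was called at an adjusted p under 0.05. The median change was 0.02 over the members and -0.29 over all tested genes. Rescaling the libraries by median of ratios put the median of all genes at 0.00 and that of the members at 0.36, with 25 members higher and 8 lower (20.9% and 20.4% of all genes), and quantile normalization gave 29 higher and 9 lower (20.8% and 19.8% of all genes). The balance of rises and falls thus depended on the scaling. The 18 called members kept their direction under both, and all but Atp5f1 kept the call. A fit with a replicate block, which the labels do not call for, gave 8 higher and 28 lower (1300 and 3539 of all genes).

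In complex IV, 4 members rose and 2 fell. Cox4i1, the common form of the nuclear subunit 4 that regulates the enzyme, was at 59.1, 60.6 and 322 FPKM in Acute, while TIC ranged from 200 to 769 FPKM (median 299). Acute 1 and 2 lay below every TIC library and Acute 3 lay inside their range. The change was 1.75 ± 0.48 (SE, adjusted p = 0.00555), and without Acute 1 or without Acute 2 it no longer passed. Cox5a, another nuclear subunit, was at 72.1, 89.7 and 120 FPKM in Acute, while TIC ranged from 167 to 494 FPKM (median 193), with no overlap. Its change was 1.45 ± 0.33 (SE, adjusted p = 0.00131), it passed under 21 of 22 alternatives, and it was 2.37 ± 0.41 (SE, adjusted p = 0.012) among the 5 Acute and TIC libraries above 500000 summed FPKM. Cox6a1 rose by 1.34 ± 0.46 and Cox7a2 by 0.66 ± 0.25. A tissue-restricted form, Cox6b2, went the other way. Cox6b2 was at 11.2, 7.68 and 17.9 FPKM in Acute, while TIC ranged from 0 to 1.65 FPKM, a change of -3.02 ± 0.57 (SE, adjusted p = 0.000197). Cox6a2 was listed at 0 in all 6 TIC libraries and held 0, 3.59 and 2.79 FPKM in the Acute libraries. It passed the filter only because Acute was counted, the group where it was high. Its call is therefore counted but not read further, and no fold is given.

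In complex V, 3 members rose and 1 fell. Atp5b was at 338, 251 and 324 FPKM in Acute, while TIC ranged from 447 to 726 FPKM (median 476), with no overlap, a change of 0.79 ± 0.21 (SE, adjusted p = 0.00388). Atp5g3, one of 3 genes for the same c subunit, was at 57.7, 20.1 and 91.9 FPKM in Acute, while TIC ranged from 81.2 to 167 FPKM (median 104), a change of 1.19 ± 0.32 (SE, adjusted p = 0.00454). Its 2 sister genes did not pass, at -1.12 ± 0.51 for Atp5g1 and 0.41 ± 0.35 for Atp5g2. Atp5l, subunit g of the membrane part, rose by 0.90 ± 0.28. Atp5f1, subunit b of the stalk that holds the catalytic head, was at 526, 247 and 118 FPKM in Acute, while TIC ranged from 93.3 to 161 FPKM, a change of -0.95 ± 0.31 (SE, adjusted p = 0.0169), and Acute 3 lay inside the TIC range.

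In complex I, 1 of 33 members was called higher and 4 lower, and this balance turned with the libraries entered. A term for the summed-FPKM division gave 13 higher and 0 lower, and the libraries with many zeros alone gave 1 and 12. Ndufs5, a small accessory subunit, rose: it was at 28.2, 25.7 and 87.5 FPKM in Acute, while TIC ranged from 81.4 to 329 FPKM (median 124), a change of 1.90 ± 0.40 (SE, adjusted p = 0.000588), with Acute 3 inside the TIC range. Ndufa8, an accessory subunit facing the intermembrane space, was at 266, 175 and 67.0 FPKM in Acute, while TIC ranged from 15.1 to 124 FPKM (median 29.0), a change of -1.83 ± 0.52 (SE, adjusted p = 0.00673). Ndufb11, a membrane-arm accessory subunit, was at 491, 178 and 108 FPKM in Acute, while TIC ranged from 32.0 to 128 FPKM (median 61.5), a change of -1.72 ± 0.45 (SE, adjusted p = 0.00392). For both, Acute 1 and 2 lay above all TIC libraries and Acute 3 lay inside their range. Ndufa7 and the iron-sulphur subunit Ndufs8 also fell, by 1.55 and 1.13. The core subunits Ndufs1 (-0.20 ± 0.23) and Ndufv1 (-0.64 ± 0.40), which carry the electrons from NADH, did not pass, nor did Ndufa4 (-0.82 ± 0.42), which is named for complex I and is now known to bind complex IV.

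Complex II was divided within itself. Sdhb was at 714, 398 and 222 FPKM in Acute, while TIC ranged from 97.3 to 250 FPKM (median 115), a change of -1.51 ± 0.35 (SE, adjusted p = 0.00147). Sdhc, a membrane anchor of the same complex, was at 65.2, 44.6 and 146 FPKM in Acute, while TIC ranged from 113 to 293 FPKM (median 135), a change of 1.07 ± 0.34 (SE, adjusted p = 0.0137). The Sdhc call was lost without Acute 1 (0.97) and without Acute 2 (0.70), while the Sdhb call held without any 1 library. The flavoprotein Sdha (-0.53 ± 0.23) and the other anchor Sdhd (-0.06 ± 0.29) did not pass. In complex III, Uqcrc1, a core subunit, was at 495, 391 and 205 FPKM in Acute, while TIC ranged from 101 to 208 FPKM (median 116), a change of -1.34 ± 0.29 (SE, adjusted p = 0.000812). It was the only one of 8 to pass, and the Rieske iron-sulphur protein Uqcrfs1, at 0.21 ± 0.23, did not.

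**Figure D3:**
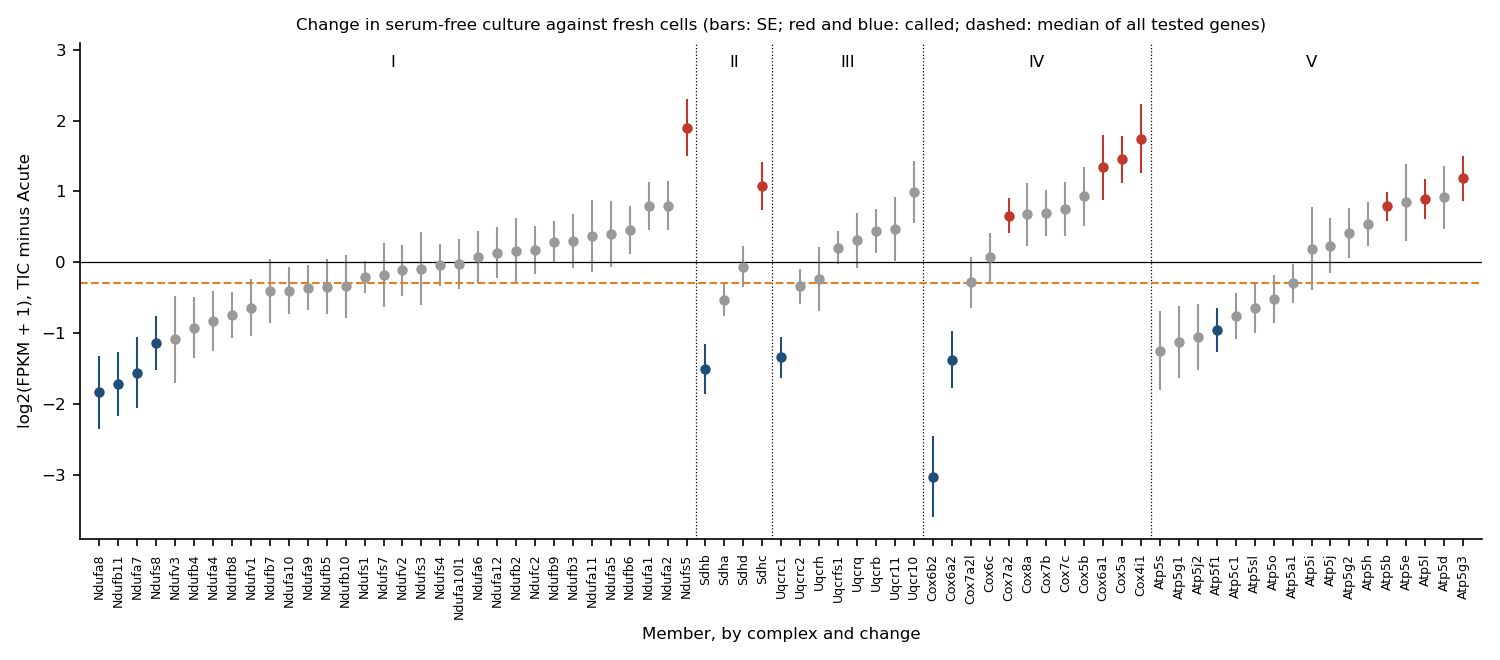
Change of 73 of the 74 members in TIC against Acute (vertical axis, log2(FPKM + 1), bars are SE), ordered within each complex, with calls in red and blue, and the median of all tested genes at -0.29 as the dashed line. Complex IV holds 4 of the 9 members called higher, and complex I holds 4 of the 9 called lower.

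The spread among the 3 Acute libraries was part of both lists. For the 9 members called lower in TIC, Acute 3 was lower than Acute 1 and 2 by a median of -1.26, and for the 9 called higher it was higher by a median of 1.40. Without Acute 1 or without Acute 2, 10 members passed in each case, and without Acute 3, 27 passed. Over all 9691 tested genes, 1061 were called higher and 2175 lower without Acute 1. The numbers were 1251 and 2241 without Acute 2, and 1611 and 2775 without Acute 3. Without Acute 1 the calls of Cox4i1 (1.34), Cox6a1 (1.11), Sdhc (0.97), Atp5f1 (-0.42), Ndufa7 (-0.93), Ndufs8 (-1.08), Ndufb11 (-1.11) and Ndufa8 (-1.40) were lost. Without Acute 2 those of Cox4i1 (1.35), Cox6a1 (1.03), Sdhc (0.70), Atp5l (0.59), Atp5g3 (0.58), Cox7a2 (0.46), Ndufs8 (-0.90) and Ndufa7 (-1.49) were lost. Cox6a2 was lost without Acute 2 and without Acute 3, and Cox7a2 also without TIC 5 (0.53) or TIC 6 (0.55). The other 6, Atp5b, Cox5a, Cox6b2, Ndufs5, Sdhb and Uqcrc1, were called without any 1 library. Among the 5 libraries above 500000 summed FPKM, 9 members were higher and 0 lower, where 5.23% of all genes were called higher and 4.41% lower. These were Ndufa2, Ndufs5, Uqcr10, Cox5a, Cox6a1, Cox7c, Cox8a, Atp5e and Atp5i, and the members' median was 0.82 against 0.03 over all genes. Sdhb (-0.72 ± 0.54), Uqcrc1 (-0.79 ± 0.48) and Ndufa8 (-0.39 ± 0.60) did not pass there. With a term for the summed-FPKM division, 37 members were higher and 4 lower (20.3% and 18.2% of all genes). Among only the libraries with many zeros, Acute 1 and 2 and TIC 1 to 3, 9 members were higher and 22 lower (11.4% and 28.7% of all genes), with a members' median of -0.41. The part of the blood cell markers and of the Acute spread in these differences was not tested.

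**Figure D4:**
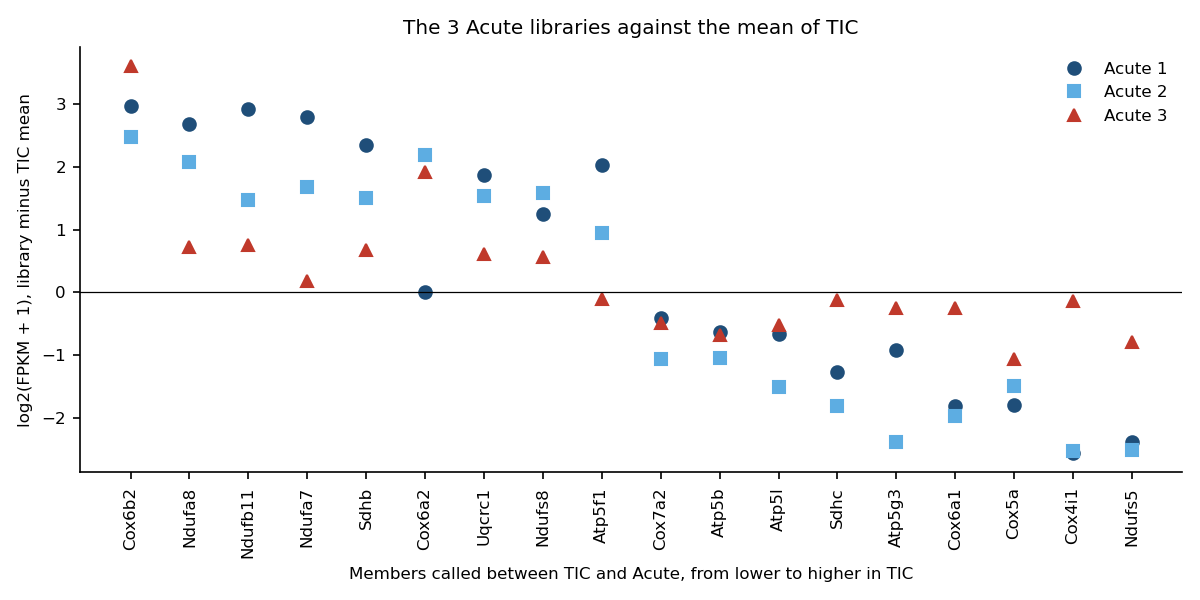
The 18 members called between TIC and Acute, with each of the 3 Acute libraries shown as its log2(FPKM + 1) minus the mean of the 6 TIC libraries. Acute 3 lies closer to the TIC mean than both Acute 1 and Acute 2 for all of the 18 except Atp5b, Cox7a2, Cox6a2 and Cox6b2.

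Many nuclear respiratory genes are known to carry sites for NRF1 and for ETS factors such as GABP near their starts. In the 250 bases before the RefSeq start (build GRCr8), for 64 members with an entry, the NRF1 motif GCGCATG stood on either strand in 17.2%, against 3.45% of 27457 promoters, and the ETS motif CCGGAAG in 28.1%, against 7.74%. The YY1 motif AAGATGG was found in 4.69% against 4.63%, and the SP motif GGGCGG in 32.8% against 32.4%. The 27457 promoters were not limited to those of tested genes, and bases after the start were not searched. Each motif was counted alone, so letters shared by overlapping motifs, such as the AAG of CCGGAAG and AAGATGG, could count for both. Among 8 members called lower and 8 called higher in TIC, the NRF1 motif was in 2 and 1, the ETS motif in 2 and 2, the SP motif in 1 and 5 and the YY1 motif in 0 and 0. These 4 splits were not tested. The promoters of a member that fell and of one that rose are shown with the motifs in capitals, from chr5:158547684-158547933 (plus strand) for Sdhb, with an NRF1 motif on the other strand and an ETS motif, and chr8:66818034-66818283 (plus strand) for Cox5a, with SP motifs on the other strand.
Sdhb: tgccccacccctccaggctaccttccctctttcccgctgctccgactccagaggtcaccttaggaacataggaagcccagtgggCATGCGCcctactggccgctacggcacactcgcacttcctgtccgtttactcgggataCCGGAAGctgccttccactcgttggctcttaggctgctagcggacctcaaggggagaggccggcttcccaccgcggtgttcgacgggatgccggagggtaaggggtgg
Cox5a: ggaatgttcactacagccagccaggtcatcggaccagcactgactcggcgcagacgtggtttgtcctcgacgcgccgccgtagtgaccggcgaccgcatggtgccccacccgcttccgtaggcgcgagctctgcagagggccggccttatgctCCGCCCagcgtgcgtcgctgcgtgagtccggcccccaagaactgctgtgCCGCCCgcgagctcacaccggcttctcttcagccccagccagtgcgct

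The serum comparisons ask what serum changed at the end of culture, and all 3 share the TIC libraries. After 1 day of serum 0 of 74 members passed, where limma called 2.92% of all genes (1.22% higher and 1.70% lower), and 0 had an unadjusted p under 0.05. The median change was -0.01 over the members and -0.01 over all genes. After 3 days 1 member passed, Atp5a1, where 10.1% of all genes passed (4.13% higher and 5.95% lower). After 5 days 2 passed, Atp5a1 and Ndufs1, where 12.9% of all genes passed (4.81% higher and 8.10% lower).

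Atp5a1 encodes the alpha subunit of the catalytic head of the ATP synthase. It was at 121 to 247 FPKM in TIC (median 189), and at 210, 202, 245, 293 and 288 FPKM in FCS 1d. It was at 301, 373, 231 and 387 FPKM in FCS 3d and at 269, 440, 386 and 473 FPKM in FCS 5d. All FCS 5d libraries lay above all TIC libraries, while FCS 3d overlapped them. The change was 0.43 ± 0.24 at 1 day, 0.80 ± 0.25 (SE, adjusted p = 0.0426) at 3 days and 1.08 ± 0.25 (SE, adjusted p = 0.00502) at 5 days. The 5-day change passed under 22 of 23 alternatives, and the 3-day change passed under 13 of 23, failing without TIC 1, 2 or 3 (0.69 to 0.76) or FCS 3d 1, 2 or 4 (0.71 to 0.83). Its partner Atp5b did not pass, at 0.52 ± 0.19 (SE, adjusted p = 0.087) after 3 days and 0.29 ± 0.19 (SE, adjusted p = 0.38) after 5 days. The promoter of Atp5a1, listed by RefSeq as Atp5f1a (chr18:73567287-73567536, plus strand), holds an SP motif and, on the other strand, an ETS motif.
Atp5a1: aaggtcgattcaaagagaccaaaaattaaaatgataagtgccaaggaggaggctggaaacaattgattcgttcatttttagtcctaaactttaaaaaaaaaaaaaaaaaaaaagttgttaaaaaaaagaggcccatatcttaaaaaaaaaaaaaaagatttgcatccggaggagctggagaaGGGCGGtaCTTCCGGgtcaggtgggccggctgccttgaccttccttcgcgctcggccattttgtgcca

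Ndufs1 encodes the largest iron-sulphur subunit of complex I, on the path of electrons from NADH. It was at 15.7 to 36.2 FPKM in TIC (median 26.8), at 37.7, 37.6, 36.3 and 38.8 FPKM in FCS 3d and at 42.3, 40.9, 35.4 and 38.4 FPKM in FCS 5d. The FCS 3d libraries lay just above all TIC libraries, and 3 of 4 FCS 5d libraries did. The change was 0.60 ± 0.21 (SE, adjusted p = 0.073) after 3 days and 0.65 ± 0.21 (SE, adjusted p = 0.0399) after 5 days. The 5-day call was lost under 11 of 23 alternatives. Among these were no filter, only the groups compared, only libraries with few zeros and only libraries with many zeros. The others left out TIC 1, 3 or 4 (0.53 to 0.65) or any 1 of the FCS 5d libraries (0.62 to 0.70).

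The serum result depended on which libraries entered. All FCS 3d and FCS 5d libraries were below 500000 summed FPKM, and TIC 5 and TIC 6 were above. With only libraries below that value, 23 members were higher and 0 lower after 3 days, where 10.4% of all genes were called higher and 7.02% lower. After 5 days 29 members were higher and 0 lower, where 10.9% of all genes were called higher and 9.00% lower. The members' median was 0.45 after 3 days and 0.46 after 5 days, against 0.08 and 0.07 over all genes. That restriction also removed the Acute libraries and FCS 1d 5. Leaving out TIC 5 alone or TIC 6 alone gave 2 calls, both higher, after 3 days and 2 after 5 days. Of all genes, 388 and 399 were then called higher after 3 days, and 459 and 455 after 5 days. The direction turned among the libraries with few zeros, where TIC was represented by TIC 4, 5 and 6. There the members' median was -0.39 after 3 days, with 63 of 74 negative, and -0.37 after 5 days, with 59 negative, against -0.23 over all genes each time. After 1 day the members' median among the libraries with few zeros was -0.36, with 64 negative, against -0.13 over all genes. With only libraries below 500000 summed FPKM, Atp5g1 alone passed after 1 day, where 3.35% of all genes were called higher. The members' median was 0.23 there. With the division as a term in the fit of all 22 libraries, 12 members were higher and 0 lower after 3 days, and likewise 12 and 0 after 5 days, where 6.03% and 7.00% of all genes were called higher. A replicate block also gave 12 and 0 at each time, where 648 and 764 of all genes were called higher.

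All 5 complexes took part in that restricted comparison. After 5 days, 10 of 33 complex I members passed, 3 of 4 in complex II, 4 of 8 in complex III, 5 of 12 in complex IV and 7 of 17 in complex V. Ndufa4 was at 56.6 to 78.1 FPKM in TIC 1 to 4, at 72.6 to 108 FPKM in FCS 1d 1 to 4, at 71.3 to 157 FPKM in FCS 3d and at 164 to 218 FPKM in FCS 5d. TIC 5 and TIC 6 both held 227 FPKM, above all 4 FCS 5d libraries. The restricted 5-day change of Ndufa4 was 1.46 ± 0.22 (SE, adjusted p = 0.00016), against 0.89 ± 0.39 (SE, adjusted p = 0.14) with all libraries. Ndufv1, the subunit that binds NADH, was at 21.2 to 58.2 FPKM in TIC 1 to 4 and at 50.0 to 91.8 FPKM in FCS 5d, and changed by 1.08 ± 0.26 when restricted. Of the 3 c subunit genes, Atp5g1 (1.04 ± 0.20) and Atp5g2 (0.95 ± 0.21) passed there, and Atp5g3 (0.38 ± 0.14) did not. Sdhd, Sdhc and Sdha rose by 0.54, 0.42 and 0.53 in the same comparison, while Sdhb (0.09 ± 0.15) did not pass. Cox7b, at 55.5 to 95.0 FPKM in TIC 1 to 4 and 112 to 143 FPKM in FCS 5d, rose by 0.72, and Cox6c by 0.83. Whether the summed-FPKM division is technical was not tested.

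**Figure D5:**
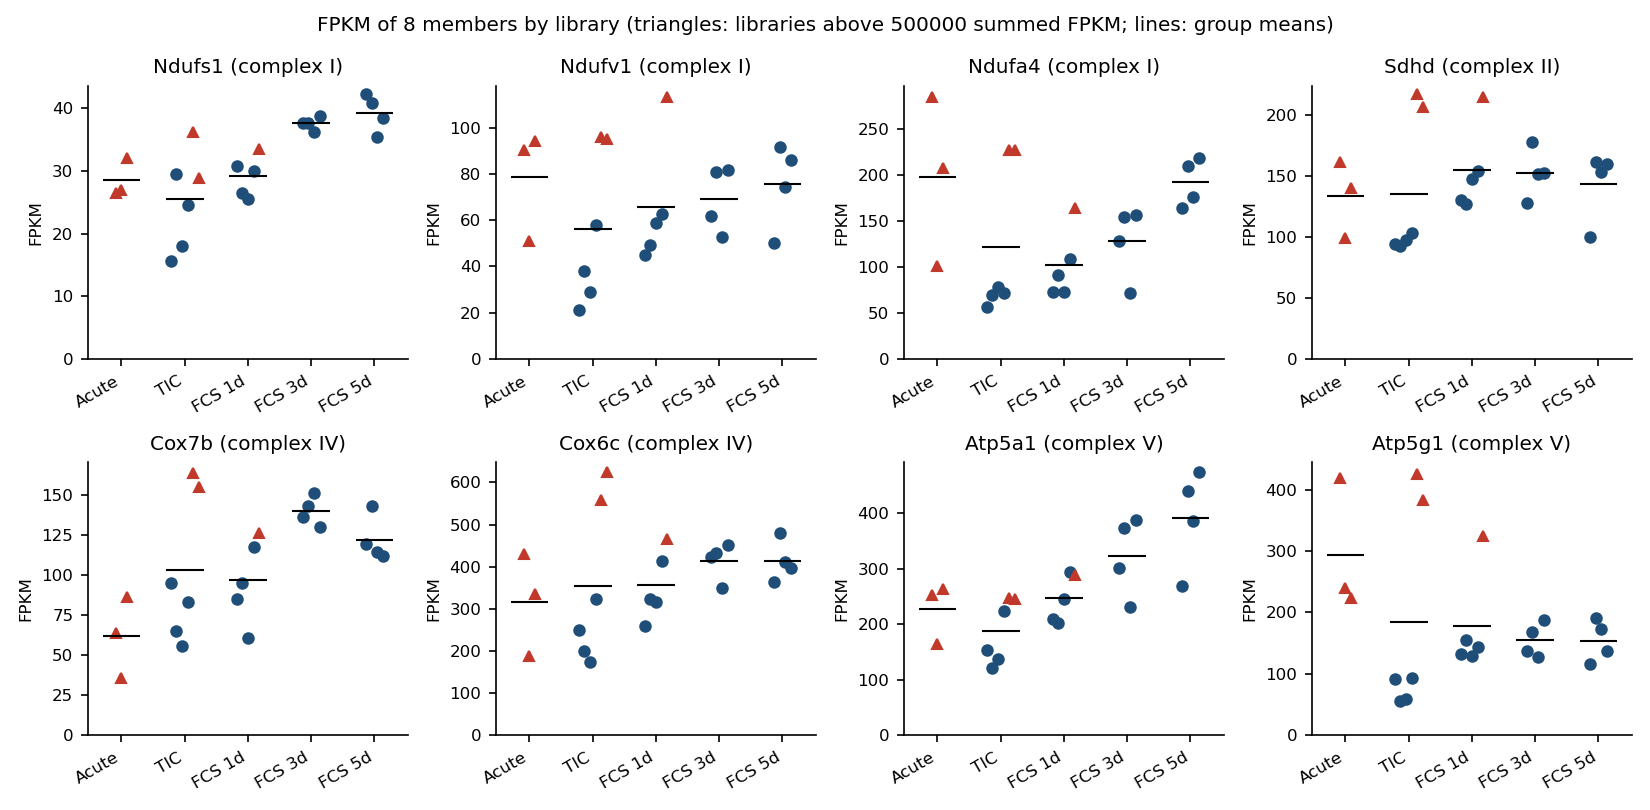
FPKM of 8 members in each library (vertical axes from 0), with group means as lines and triangles for the 6 libraries above 500000 summed FPKM. In TIC both triangles lie above all circles for every member shown except Ndufs1, where 1 circle lies between them, and the FCS 5d circles of Atp5a1, at 269 to 473 FPKM, lie above all TIC points.

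Whether the longest and the shortest serum exposure differed was tested directly, as FCS 5d against FCS 1d. By limma no member passed (0 of 74), where 5.38% of all genes did (1.92% higher and 3.46% lower), and 3 had an unadjusted p under 0.05, all higher in FCS 5d. Ndufa4 was at 72.9, 90.5, 72.6, 108 and 164 FPKM in FCS 1d and at 164, 210, 176 and 218 FPKM in FCS 5d, a change of 0.97 ± 0.40 (SE, adjusted p = 0.19). The groups touched without overlapping. With only libraries below 500000 summed FPKM, Ndufa4 (1.16 ± 0.22), Ndufs8 (0.81 ± 0.21) and Atp5g3 (0.52 ± 0.14) passed, where 4.66% of all genes were called higher. Other settings that called any member called 1 to 4, all higher in FCS 5d.

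FCS 5d against Acute compares the longest serum culture with fresh cells and shares the Acute libraries with the first comparison. Of 74 members 10 were higher and 9 lower, where 39.8% of all genes passed (12.0% higher and 27.9% lower), with a median of 0.09 over the members and -0.38 over all genes. Median-of-ratios rescaling gave 30 higher and 7 lower (19.2% and 19.2% of all genes), and quantile normalization 35 and 7 (20.6% and 17.7%). Atp5b, at 569, 681, 633 and 680 FPKM in FCS 5d, was above all Acute libraries by 1.08 ± 0.22 (SE, adjusted p = 0.000584), and passed under all 19 alternatives run. Cox4i1, at 310, 445, 399 and 411 FPKM, was higher by 1.87 ± 0.52 (SE, adjusted p = 0.00648), and was called neither without Acute 1 (1.46) nor without Acute 2 (1.48). Among the falls, Sdhb, at 103, 123, 119 and 107 FPKM, lay below all Acute libraries, a change of -1.81 ± 0.38 (SE, adjusted p = 0.000645), and Ndufa8, at 25.0, 37.7, 49.4 and 34.2 FPKM, likewise, at -2.01 ± 0.56 (SE, adjusted p = 0.00666). The Ndufa8 call was lost without Acute 1 (-1.58). The calls of Atp5f1, Atp5g2, Ndufa7, Ndufb4, Ndufs5 and Sdhc were lost without Acute 1 and also without Acute 2. Those of Atp5a1, Atp5l and Cox7b were lost without Acute 2, and that of Cox6a2 without Acute 2 or Acute 3. Some of these were also lost without an FCS 5d library. Only Atp5b, Atp5g3, Atp5s, Cox5a, Cox6b2, Sdhb and Uqcrc1 were called without any 1 library. Atp5s held 0, 1.16, 1.14 and 1.71 FPKM in FCS 5d, below the 14.3, 18.2 and 1.82 FPKM of Acute, a change of -2.32 ± 0.60 (SE, adjusted p = 0.00418) at levels near the filter. All Acute libraries had summed FPKM above 500000 and all FCS 5d libraries below, so this comparison cannot be told apart from that division except through the other groups. With the division as a term, 49 members were higher and 0 lower, where 16.0% of all genes were called higher. A term for the division by zeros instead gave 10 higher and 13 lower, where 1159 and 3264 of 9691 genes were called. The members' median was then -0.19, against -0.47 over all genes.

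Genes around the respiratory chain did not follow a single direction. Of all tested genes, 14.7% were called higher in TIC than in Acute and 27.7% lower. Between TIC and Acute, 4 of 18 other respiratory chain genes rose and 3 fell, among them Vdac1, the outer membrane channel (1.87 ± 0.30), and Etfa, which feeds electrons from fatty acid oxidation (-1.50 ± 0.34). Of 36 tested assembly factors 1 rose and 8 fell, and of 69 mitochondrial ribosome genes 0 rose and 18 fell, with a median of -0.59 against -0.29 over all genes. Their shares of falls lay below the 27.7% of all tested genes called lower. In the tricarboxylic acid cycle and its entry, 4 of 16 rose and 6 fell, with Pdha1 of pyruvate dehydrogenase at 2.09 ± 0.31 and the mitochondrial isocitrate dehydrogenase Idh2 at -1.69 ± 0.25. Tfam, which packages and transcribes mitochondrial DNA, fell by 1.40, and was the only one of 11 biogenesis regulators to pass. Of 19 glycolysis genes 12 rose and 1 fell, with a median of 1.54, led by the lactate exporter Slc16a3 (3.40 ± 0.65) and the glucose transporter Slc2a1 (2.74 ± 0.31).

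Under serum, calls in these lists were mainly Pdha1 and glycolysis genes. Pdha1 was lower than in TIC after 1 day (-1.21 ± 0.26), 3 days (-1.70 ± 0.28) and 5 days (-1.59 ± 0.28). Glycolysis genes were higher for 2 of 19 after 1 day and after 3 days, and lower for 6 of 19 after 5 days, where 1.22% and 4.13% of all genes were called higher and 8.10% lower, in that order. At 5 days Slc16a3 changed by -3.14 ± 0.60 and Slc2a1 by -1.73 ± 0.28. Between 5 days and 1 day of serum, 7 of 19 glycolysis genes were lower and 0 higher. Of all genes, 3.46% were called lower and 1.92% higher there, while 0 of the 74 oxidative phosphorylation members passed. Of 69 mitochondrial ribosome genes and 36 assembly factors, 0 passed in any of the 3 serum comparisons with TIC, against the shares of all genes given above.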

How the data were processed

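RNA was sequenced from 22 samples in 5 groups of 3 to 6, which the series calls biological replicates. Per the labels' protocols, libraries were poly-A SmartSeq2 libraries, tagmented and read in pairs. The authors deposited FPKM, 1 column per sample, and the submitters' processing notes name HISAT2 2.0.3, Cufflinks 2.2.1 and build rn6. The sources used here give neither annotation nor settings, and the number of fragments behind each value is unknown, so no counting intervals are given. Labels do not say which samples shared an animal, so p-values measure the spread between these samples.

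Values were taken as log2(FPKM + 1), which understates the change of a weakly expressed gene. The 9691 genes reaching 1 FPKM in 3 or more libraries were tested with limma 3.58.1 in R 4.3.3 (5 group means, trend and robust), two-sided, with Benjamini-Hochberg adjustment over all of them. The procedure was tested on simulated data. The simulated noise was independent between genes and libraries and held neither library division, so it cannot say how those divisions affect the calls. Members and lists were chosen with earlier results of these data known. Named genes are a fixed set of subunits, up to 3 calls each way per comparison, the highest and lowest member of each complex, and up to 3 called genes per list. Others shown for the restricted comparisons were chosen after their values were seen. Promoter letters come from RefSeq GRCr8, matched by symbol (49 members) or synonym (15), and no coordinates were converted. No pair of libraries held identical values. Values of 1 member are not reported here, though it is counted among the 74.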

Additional observations from a re-analysis of the deposited data

Results flagged for a closer look

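Of 149 groups of 4 to 6 libraries examined, 14 held 1 library far from the others. Chance alone gives about 1 in 20 for independent groups. These groups share libraries, so that rate is not a fair comparison. In 8 of the 14 the distant library was FCS 1d 5, the FCS 1d library above 500000 summed FPKM, and it was the highest each time. It held 114 FPKM of Ndufv1, 113 of Ndufa8, 272 of Sdhc, 233 of Uqcrc1, 83.4 of Uqcrq, 827 of Cox6a1, 870 of Cox8a and 324 of Atp5g1. FCS 5d 1 was the lowest of its group for Sdhd, at 100 FPKM, and for Ndufb11, at 56.5 FPKM. FCS 3d 3 was the lowest for Ndufa10l1, at 2.36 FPKM, and for the complex III share, at 0.213% of summed FPKM. Cox6a2 was at 2.07 FPKM in FCS 1d 4 and at 1.07 FPKM in FCS 3d 2, and at 0 in the other libraries of those groups.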

How the results depend on the processing

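Counts of members called follow the order TIC against Acute (18), FCS 1d against TIC (0), FCS 3d against TIC (1), FCS 5d against TIC (2), FCS 5d against Acute (19) and FCS 5d against FCS 1d (0), and only counts that moved over 1.5 times are named. Median-of-ratios rescaling gave 33 for the first, 4, 4, 37 and 2 for the last 4. Quantile normalization gave 38, then 7, 7, 42 and 1. Median-of-ratios rescaling called 553, 673 and 311 of all genes higher for FCS 3d and FCS 5d against TIC and FCS 5d against FCS 1d. Quantile normalization called 639, 762 and 332 higher there. With only the groups compared, the counts were 9, then 0, 1, 11 and 1. Over all 9691 genes, this called 913 higher and 1814 lower for TIC against Acute, and 715 and 2092 for FCS 5d against Acute. For FCS 3d and FCS 5d against TIC it called 417 and 452 higher, and 572 and 734 lower. For FCS 5d against FCS 1d it called 272 higher and 437 lower. No filter gave 0 after 3 days and 1 after 5 days of serum, where 277 and 340 of all 17284 genes were called higher. With a term for the summed-FPKM division the counts were 41, then 12, 12, 49 and 3, and with the division by zeros as a term 3 after 3 days and 1 for FCS 5d against FCS 1d. Libraries above 500000 alone gave 9 for TIC against Acute, and libraries below gave 1, 23, 29 and 3 for FCS 1d, FCS 3d and FCS 5d against TIC and FCS 5d against FCS 1d. A further pair of settings was chosen after seeing the data: libraries with few zeros gave 3, 0, 1, 2 and 1 (all but FCS 1d), with members' medians of -0.39 and -0.37 for FCS 3d and FCS 5d against TIC, and libraries with many zeros gave 31 (9 higher, 22 lower), 0 and 0 for TIC against Acute and for FCS 3d and FCS 5d against TIC. Over all genes, few zeros called 857 higher and 1117 lower for TIC against Acute, and 689 and 1471 for FCS 5d against Acute. For FCS 3d and FCS 5d against TIC, 235 and 461 genes were higher, and 432 and 1020 lower. For FCS 5d against FCS 1d, 271 were higher and 376 lower. Many zeros called 85 higher and 102 lower for FCS 3d against TIC, and 33 and 98 for FCS 5d against TIC. Leaving out 1 library gave 10 to 27, 0 to 0, 0 to 2, 1 to 2, 8 to 25 and 0 to 1. The cause of these moves was not tested.

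The labels do not say that a replicate number marks a shared animal, batch or day. Same-numbered libraries of different groups correlated at -0.10 to 0.48 after removing group means (median 0.10), and 18 of 37 pairs passed 0.1. Differently numbered libraries correlated at -0.33 to 0.51 (median -0.04), and 35 of 154 pairs passed 0.1. The numbers were not taken as pairs, since the labels give no such pairing. That 18 of 22 libraries correlated best with one of their own number is a hint from the data, not the design. The fit with a replicate block called 36 (8 higher, 28 lower), 0, 12, 12, 33 and 4 members. Over all 9691 tested genes it called 1300 higher and 3539 lower for TIC against Acute, and 1338 and 3235 for FCS 5d against Acute. For FCS 3d and FCS 5d against TIC it called 648 and 764 genes higher, and 484 and 694 lower. For FCS 5d against FCS 1d it called 351 higher and 411 lower.

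Among called members, 5 values changed sign: with few zeros, Atp5f1 (0.18), Ndufa7 (0.55) and Ndufa8 (0.046) in TIC against Acute and Atp5f1 (0.19) in FCS 5d against Acute, and with a term for summed FPKM Ndufb4 (0.12) in FCS 5d against Acute. Another 171 such values kept their sign and lost the call, and 648 kept both. Centring by protein length was not run, and a comparison with no library of a group on one side of a division could not be fitted there. The number of libraries, 3 to 6 a group, limits what small changes could be called.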
